A study of Mus musculus with 2 samples.

Results

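The cells described here carry transcripts of Calb1, the calcium-binding protein calbindin, together with collecting duct transcripts, the combination by which the connecting tubule of the kidney is usually recognised. They were chosen by transcript counts from 2 single-cell libraries. A cell entered with at least 3 UMIs (unique molecular identifiers, each standing for 1 captured RNA molecule) of Calb1 and at least 3 of Aqp2, Aqp3 and Hsd11b2 together, and with fewer than 3 each of Slc12a3, Slc12a1 and Atp6v1g3, which mark the distal convoluted tubule, the thick ascending limb and intercalated cells. This rule found 450 of 11607 kept cells, namely 124 of 4371 in the wild type (WT) library and 326 of 7236 in the knockout (KO) library. Kept cells had at least 500 UMIs, at least 200 genes and under 50% mitochondrial UMIs.

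The WT library came from kidney of 5-week-old mice labelled WT and Control. The KO library came from 5-week-old mice labelled Kif3aΔTub and Disease, a tubular deletion of Kif3a, which encodes a motor subunit that carries cargo into the primary cilium. The labels name no strain, Cre driver, deleted exons, sex or number of animals, and each genotype is 1 library. No difference between the genotypes therefore has a replicate check and no p-value is given. All intervals are 95% intervals for counting error alone.

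The connecting tubule lies between the distal convoluted tubule and the collecting duct. Its cells take up calcium through the channel Trpv5, carry it across the cell bound to calbindins (Calb1 and S100g), and extrude it through the exchanger Slc8a1 and plasma membrane calcium pumps. They also take up sodium through the epithelial channel ENaC (Scnn1a, Scnn1b and Scnn1g) under aldosterone, secrete potassium, release tissue kallikrein (Klk1), and move water through Aqp2 where vasopressin acts. Principal cells of the collecting duct share the sodium, potassium and water machinery but not the calcium machinery.

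The defining marker S100g split the selected cells into separate groups. S100g (chrX:162961992-162964599, minus strand, mm10, GENCODE vM21) was not part of the rule. Of the WT cells, 81 had no S100g UMI and 15 had 1 or 2, while 15 had 200 or more. Of the KO cells, 121 had none, 79 had 1 or 2, and 48 had 200 or more. Only 2 WT and 15 KO cells lay from 3 to 9 UMIs. Cells with 10 or more S100g UMIs, called S100g-rich below, made up 26 of the 124 WT cells (21.0%, exact Clopper-Pearson interval 14.2 to 29.2%) and 111 of the 326 KO cells (34.0%, 28.9 to 39.5%). Cells with 2 or fewer, called S100g-poor, made up 96 WT (77.4%, 69.0 to 84.4%) and 200 KO cells (61.3%, 55.8 to 66.7%). This division was made after the counts had been seen.

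**Figure D1:**
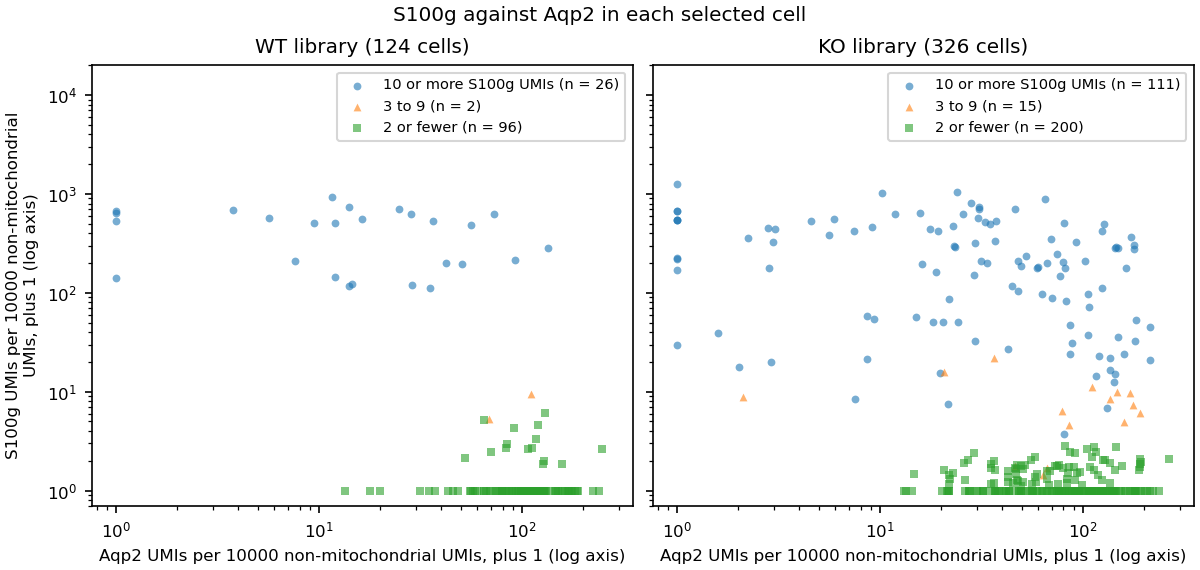
Each point is 1 selected cell, with its Aqp2 UMIs on the horizontal axis and its S100g UMIs on the vertical axis, both per 10000 non-mitochondrial UMIs plus 1 on log axes, WT left and KO right. The S100g-rich cells (26 WT, 111 KO) form an upper band that reaches down to no Aqp2, and the S100g-poor cells (96 WT, 200 KO) lie along the bottom at high Aqp2, with 2 and 15 cells between them.

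Several connecting tubule genes, Klk1, Slc8a1, Trpv5, Pth1r and Vdr among them, stood higher in the S100g-rich than in the S100g-poor cells of both libraries. Levels are given in CPM, the UMIs of a gene per 1000000 non-mitochondrial UMIs, both summed over the cells of a set, WT first. In S100g-rich cells Klk1 stood at 30531 and 4975 CPM, against 21.7 and 13.9 CPM in S100g-poor cells. Slc8a1 stood at 519.9 and 96.1 CPM against 26.1 and 12.4 CPM, and Trpv5 at 112 and 126 CPM against 0 and 23.0 CPM. The parathyroid hormone receptor Pth1r (313 and 71.1 against 10.1 and 10.2 CPM) and the vitamin D receptor Vdr (219 and 77.5 against 23.2 and 6.94 CPM) showed the same division in both libraries. Other calcium genes did not divide that way. The channel Trpv6 stood at 0 and 5.65 CPM in S100g-rich and at 8.70 and 25.5 CPM in S100g-poor cells, and the pump Atp2b1 at 142 and 132 against 113 and 129 CPM. In the other direction, the principal cell gene Fxyd4, a regulator of the sodium pump, stood at 9215 and 5885 CPM in S100g-poor cells and at 1270 and 3534 CPM in S100g-rich cells.

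Among 5463 genes with enough counts in both libraries, 222 in WT and 116 in KO were at least 2-fold higher in S100g-rich than in S100g-poor cells. Of these, 60 were shared, which is 27.0% of the WT list and 51.7% of the KO list. The shared genes with the widest gap, named after their values were seen, included Hoxd10, at 124 and 137 CPM in S100g-rich against 2.90 and 7.93 CPM in S100g-poor cells, and the metal-binding protein gene Mt1, at 1317 and 1544 against 170 and 238 CPM. On the S100g-poor side 854 genes in WT and 98 in KO passed, of which 63 were shared (7.38% and 64.3%). The sums behind these counts differed in depth. S100g-rich cells held 169272 non-mitochondrial UMIs in WT and 1238200 in KO, and S100g-poor cells 689712 and 4035738. A gene with few UMIs is therefore more easily counted as higher on the S100g-poor side. How far depth made the unequal counts was not tested. RNA of other segments was present too. Distal convoluted tubule markers, 6 genes, summed to 5784 and 2713 CPM in S100g-rich cells, 1663 and 374 CPM in S100g-poor cells, and 1554 and 381 CPM over all kept cells. WT S100g-rich cells also held more proximal tubule RNA than the other groups of selected cells. Proximal tubule markers, 10 genes, summed to 4620 CPM there, against 48.5 CPM in KO S100g-rich cells, 980 and 197 CPM in S100g-poor cells, and 28608 and 1093 CPM over all kept cells.

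For a gene that belongs to another cell type, the level in endothelial cells of the same library shows what free RNA in the droplets can give. Endothelial cells were taken by their own markers, 150 in WT and 481 in KO. After each cell was thinned to 3000 UMIs, Klk1 was found in 7.87% of WT and 4.02% of KO S100g-poor cells, beside 7.46% and 9.68% of endothelial cells, whose median depth was 2780 and 3098 UMIs. Slc8a1 was found in 11.2% and 3.02% of S100g-poor cells beside 4.48% and 2.02% of endothelial cells. In S100g-rich cells the thinned shares were 73.9% and 38.3% for Klk1 and 52.2% and 16.8% for Slc8a1, and 80.8% and 55.0%, and 61.5% and 46.8%, before thinning. Not all markers were at the endothelial level in S100g-poor cells. Trpv5 was found in 6.03% and Trpv6 in 6.53% of KO S100g-poor cells, beside 1.21% and 0.806% of KO endothelial cells. Kl, the coreceptor for the phosphate hormone FGF23, was found in 51.7% and 17.6% of S100g-poor cells beside 7.46% and 2.42% of endothelial cells. Klk1, Slc8a1, Trpv5, Pth1r and Vdr were thus higher in the S100g-rich cells, 137 of the 450. Aqp2, Hsd11b2 and Scnn1b, also markers of this segment, were not higher there in both libraries. Aqp2 stood at 2511 and 6373 CPM in S100g-rich against 10554 and 7178 CPM in S100g-poor cells. Hsd11b2 stood at 3562 and 2802 against 5736 and 2798 CPM, and Scnn1b at 467 and 405 against 570 and 359 CPM. Some markers were present in S100g-poor cells above the endothelial level, and the whole set is called the selected cells here.

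Selected cells were a larger share of the KO library. They made up 2.84% (2.36 to 3.37%) of kept WT cells and 4.51% (4.04 to 5.01%) of kept KO cells, a ratio of 1.59 (1.29 to 1.97). With a mitochondrial limit of 25% the ratio was 1.02. With the rule applied to cells of at least 3000 UMIs, each thinned to that number, it was 1.01. S100g-rich cells made up 0.595% and 1.53% of kept cells, a ratio of 2.58 (1.67 to 4.12), and S100g-poor cells 2.20% and 2.76%, a ratio of 1.26 (0.98 to 1.62). The mitochondrial limit weighs unequally on these shares, since the median mitochondrial share of S100g-rich cells was 34.1% in WT and 11.3% in KO. At 50% or more, 10 WT and 2 KO barcodes with 10 or more S100g UMIs met the gene rule and were left out. Among distal cells, taken as the selected cells together with 182 WT and 228 KO cells chosen by Slc12a3 and 91 WT and 1986 KO principal cells chosen by the collecting duct genes without Calb1, the selected cells were 31.2% in WT and 12.8% in KO. Principal cells alone were 27.4% of kept KO cells. How cells were lost in dissociation was not measured, so a change in cell number and a change in recovery cannot be told apart.

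The thresholds cut through a continuous range of Calb1. Exactly 3 Calb1 UMIs were held by 13 WT and 56 KO members, and 14 WT and 85 KO cells stood just outside at 2, of which 0 and 8 were S100g-rich. Of cells with 2 UMIs of the collecting duct genes together, just outside, 3 of 3 in WT and 7 of 8 in KO were S100g-rich. Members held a median of 7598.5 UMIs in WT and 12678 in KO, and 871904 and 5545724 non-mitochondrial UMIs in all. Calb1 ran from 3 to 133 UMIs per WT cell with a median of 9, and from 3 to 171 per KO cell with a median of 7. The files shared 20 barcodes, and no member barcode was a member in both libraries. In KO endothelial cells Aqp2, Aqp3 and Hsd11b2 summed to 804 CPM, against 7.65 CPM in WT. No member lay at or under that level, and 7 KO cells, all S100g-rich, lay under 2 times it.

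The genes that led the selected cells over all other kept cells in both libraries included calcium and collecting duct genes. They were Calb1, Aqp2, Aqp3 and S100g, the potassium channel subunit Kcne1, the prostaglandin receptor Ptger1, the ENaC subunit Scnn1g, Fxyd4, the growth factor Btc, the protease Pappa, and Pgam2 and Tbck. Kcne1 stood at 599 CPM in WT, 66.5 times the other kept cells, and at 154 CPM in KO, 5.13 times. Btc stood at 369 and 381 CPM, 27.1 and 3.90 times the other cells. Calb1, Aqp2 and Aqp3 were part of the rule, so their lead was fixed by the selection. The other leads pool S100g-rich and S100g-poor cells and do not show that the genes were joined within a cell. All these leads describe the selection and were not tested.

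Over all selected cells, 6893 genes reached 20 CPM and 20 UMIs in the higher library. Of these, 282 (4.09%) were at least 2-fold higher in KO and 402 (5.83%) at least 2-fold lower, with a median log2 ratio of -0.15. With trimmed-mean scaling, which moved the median to 0.04, the counts were 430 higher and 257 lower, so the higher share of the calls went from 41.2% to 62.6%. In S100g-rich cells 18.7% of 4487 genes were at least 2-fold higher and 3.57% lower, with a median of 0.34. In S100g-poor cells 4.63% of 6441 genes were higher and 5.99% lower, with a median of -0.15. The S100g-rich shares depend on the filter, because the WT sum of 169272 UMIs reaches 20 UMIs only at 118 CPM, while the KO sum of 1238200 UMIs does so below 20 CPM. With genes kept instead by a mean of at least 118 CPM over both libraries, a filter chosen after the data were seen, 7.06% of 1431 genes were higher and 5.94% lower in S100g-rich cells, with a median of 0.025. Counts for S100g-rich cells are given on that filter as well where they bear on a list.

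Calcium genes were lower in KO in the S100g-rich cells. Of 11 measured members of a calcium reabsorption list, 6 were at least 2-fold lower and 0 higher, with a median log2 ratio of -1.22. That median is the ratio of S100g, the gene that made the division. Without S100g, 5 of 10 were lower and 0 higher, with a median of -1.21. With the filter on the mean, 6 of 9 list members, S100g among them, were lower and 0 higher, with a median of -1.51. Klk1 (chr7:44225360-44229618, plus strand), which also raises Trpv5 activity, went from 30531 to 4975 CPM, a log2 ratio of -2.62 (-2.67 to -2.56). 1 WT cell held 28.0% of its WT UMIs. Slc8a1 had a log2 ratio of -2.44 (-2.85 to -2.02), Pth1r -2.14 (-2.65 to -1.62) and Vdr -1.51 (-2.06 to -0.91). Kl stood at 1749 and 474 CPM, a log2 ratio of -1.88 (-2.09 to -1.68). S100g itself, which made the division, stood at 45389 and 19504 CPM.

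Not every calcium gene moved that way. The entry channel Trpv5 had a log2 ratio of 0.13 (-0.52 to 0.94) in S100g-rich cells, and the pump Atp2b1, at 142 and 132 CPM, one of -0.13 (-0.73 to 0.58). In S100g-poor cells Trpv5 had no UMI in WT and 23.0 CPM in KO, at least 5.30-fold higher, where KO endothelial cells held 12.4 CPM. Its relative Trpv6 stood there at 8.70 and 25.5 CPM, a log2 ratio of 1.44 (0.38 to 3.03). Of 11 measured calcium genes in S100g-poor cells, 2 were higher and 4 lower, with a median of -0.26, or -0.47 without S100g.

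Mitochondrial content moved with these calcium values. With S100g-rich cells limited to under 25% mitochondrial UMIs, 7 WT and 94 KO cells remained. Of 10 calcium list genes other than S100g, 1 was then higher and 3 lower, with a median of -0.39. Klk1 then had a log2 ratio of -2.003 (-2.12 to -1.88), Pth1r -1.69 (-2.60 to -0.50) and Vdr -1.36 (-2.26 to -0.19). Kl then had -0.85 (-1.28 to -0.35), and Slc8a1 -0.81 (-1.77 to 0.52), an interval that includes 0. In cells chosen by Slc12a3, the distal convoluted tubule, Klk1 was higher in KO, at 4707 and 7003 CPM, while Kl was lower, at 1627 and 230 CPM, as was Slc8a1, at 158 and 67.5 CPM.

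The S100g-rich cells of the 2 libraries also differed in their mix. By Calb1 UMIs per UMI of the collecting duct genes, both of them rule genes, 1 WT and 33 KO S100g-rich cells lay under 0.1, 16 and 48 from 0.1 to under 0.5, and 9 and 30 at 0.5 or more. At 0.5 or more, Klk1 had a log2 ratio of -2.05 (-2.11 to -1.98), Slc8a1 -2.31 (-2.85 to -1.79) and Kl -1.55 (-1.84 to -1.25). In the middle range the differences were smaller for Klk1, at -0.90 (-0.998 to -0.79), and for Slc8a1, at -0.84 (-1.80 to 0.29), an interval that includes 0. Kl had -1.45 (-1.79 to -1.10) there. Over all selected cells of the middle range, S100g-poor ones included, Klk1 stood at 4194 and 4112 CPM. Slc8a1 stood there at 70.2 and 58.4 CPM, and neither gene differed 2-fold. S100g-rich cells were 16 of 39 WT and 48 of 66 KO cells of that range, so these pooled levels compare unlike mixes. Vdr in the middle range of S100g-rich cells had -0.63 (-1.47 to 0.35). The single WT cell under 0.1 allows no comparison.

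Cells with and without the injury transcript Lcn2 also differed in these genes. Of the S100g-rich cells, all 26 in WT and 56 of 111 in KO held fewer than 3 Lcn2 UMIs. Over these cells alone, the calcium list without S100g had a median of -0.65, Klk1 a log2 ratio of -1.23 (-1.28 to -1.17), Kl -1.21 (-1.44 to -0.97) and Slc8a1 -1.69 (-2.19 to -1.21). The deficit was thus present in KO cells low in Lcn2 and smaller there than over all S100g-rich cells. When all selected cells with 3 or more Lcn2 UMIs were left out, 114 WT and 64 KO cells remained, the KO ones mostly S100g-rich and the WT ones mostly S100g-poor. The log2 ratio over that unlike mix was 0.78 for Klk1, higher in KO. Values of the calcium genes over all selected cells thus depend on the mix and are given by group here.

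**Figure D2:**
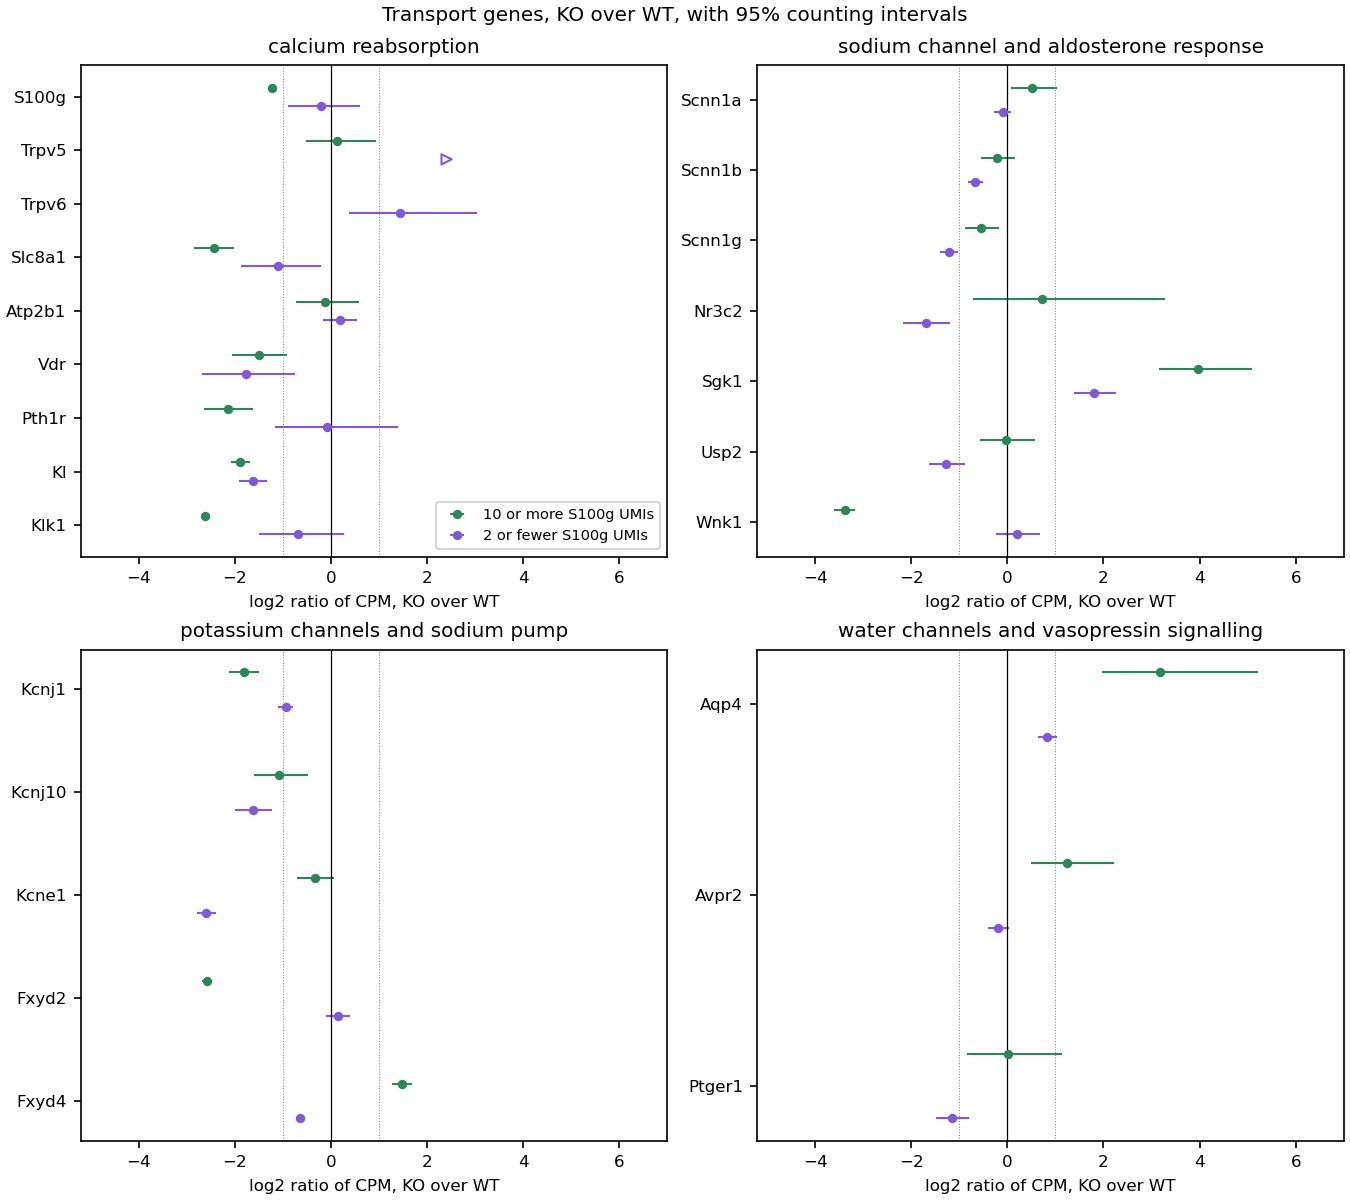
Log2 ratios of CPM, KO over WT, are plotted for the genes of 4 transport lists that are described with their values, in S100g-rich cells (green) and S100g-poor cells (purple), with 95% counting intervals as bars, the open triangle a lower bound, and dotted lines at 2-fold. Sgk1 lies to the right in both sets (3.96 and 1.79), and Klk1, Wnk1 and Fxyd2 lie far to the left in S100g-rich cells (-2.62, -3.39 and -2.57).

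Sgk1 (chr10:21882184-21999903, plus strand), the kinase that aldosterone induces and that keeps ENaC at the cell surface, had the highest ratio of the transport genes in S100g-rich cells. In S100g-rich cells it stood at 59.1 (28.3 to 109) CPM in WT and 966 CPM in KO, a log2 ratio of 3.96 (3.15 to 5.10). In S100g-poor cells it stood at 66.7 and 234 CPM, a ratio of 1.79 (1.38 to 2.27). After thinning, 13.0% of WT and 78.5% of KO S100g-rich cells held a Sgk1 UMI. Under 25% mitochondrial UMIs the S100g-rich ratio was 3.19 (2.18 to 4.75), without cells marked as doublets 3.96 (3.07 to 5.27), and over cells with fewer than 3 Lcn2 UMIs 3.95 (3.12 to 5.09).

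Levels of Sgk1 in neighbouring segments were close to each other in the 2 libraries. Sgk1 stood at 48.9 and 42.2 CPM in the distal convoluted tubule cells and at 85.4 and 71.9 CPM in the 53 WT and 1914 KO principal cells with fewer than 5 proximal UMIs. In all principal cells it stood at 50.8 and 77.5 CPM. Endothelial cells held 1670 and 1056 CPM. Within S100g-rich cells the Sgk1 ratio was 3.47 (2.61 to 4.69) in the middle Calb1 range and 4.88 (2.96 to 10.78) at 0.5 or more, from 9 and 1 WT UMIs. No test of the difference between segments was possible with 1 library per genotype.

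The aldosterone and ENaC list as a whole did not follow Sgk1. Of 14 measured members in all selected cells, 1 was higher and 3 lower, with a median of -0.48. In S100g-rich cells 3 were higher and 1 lower of 13, with a median of -0.06. With the filter on the mean, 1 was higher and 1 lower of 8 there, with a median of -0.34. The channel subunit Scnn1a had a log2 ratio of 0.52 (0.08 to 1.03) in S100g-rich and -0.10 (-0.27 to 0.08) in S100g-poor cells. Scnn1g was lower in both, at 490 and 338 CPM and at 457 and 197 CPM. The mineralocorticoid receptor Nr3c2 stood at 81.2 and 25.3 CPM in S100g-poor cells, a ratio of -1.69 (-2.17 to -1.19). The deubiquitinase gene Usp2, an aldosterone target, stood there at 119 and 49.6 CPM. The kinase Wnk1, which governs sodium chloride transport, was lower in S100g-rich cells, at 2517 and 241 CPM, a ratio of -3.39 (-3.60 to -3.17). Its level in WT distal convoluted tubule cells was 5712 CPM.

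Among potassium and sodium pump genes more were lower in KO than higher. In S100g-rich cells 4 of 11 measured members were at least 2-fold lower and 2 higher, with a median of -0.54. With the filter on the mean, 3 of 9 were lower and 1 higher there, with a median of -0.54. In S100g-poor cells 3 of 10 were lower and 0 higher, with a median of -0.49. Over the mix of all selected cells 6 of 11 were lower and 0 higher, with a median of -1.11, which became 0.28 without the cells with 3 or more Lcn2 UMIs. The secretory potassium channel Kcnj1 stood at 762 and 217 CPM in S100g-rich cells and at 657 and 343 CPM in S100g-poor cells. The basolateral channel Kcnj10 stood at 207 and 99.3 CPM and at 129 and 41.9 CPM. In S100g-poor cells Kcne1 had a log2 ratio of -2.60 (-2.79 to -2.40). In S100g-rich cells its ratio was -0.34 (-0.70 to 0.06). Fxyd2, a pump regulator, stood at 8525 and 1432 CPM in S100g-rich cells. All kept WT cells held 11041 CPM of Fxyd2, and the part that proximal RNA has in that value was not tested.

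Single genes of water transport were higher in KO in S100g-rich cells, while the median of the 9 measured list members was not. Of 9 measured water genes in S100g-rich cells 2 were higher and 0 lower, with a median of -0.14. With the filter on the mean only 3 were left there, 2 of them higher and 0 lower, with a median of 1.24. Of 11 in S100g-poor cells 0 were higher and 4 lower, with a median of -0.61. Aqp4, the basolateral water channel of principal cells, stood at 23.6 and 238 CPM in S100g-rich cells, a log2 ratio of 3.17 (1.96 to 5.22), and at 325 and 576 CPM in S100g-poor cells. The vasopressin receptor Avpr2 stood at 76.8 and 188 CPM in S100g-rich cells and at 303 and 266 CPM in S100g-poor cells. Fxyd4, the pump regulator of principal cells, was higher in KO S100g-rich cells, with a log2 ratio of 1.47 (1.28 to 1.68), and lower in S100g-poor cells, with -0.65 (-0.69 to -0.61). Its ratio moved with the mix of cells, from 1.16 (0.92 to 1.42) in the middle Calb1 range of S100g-rich cells to 4.44 (3.097 to 6.95) at 0.5 or more, from 3 WT UMIs. Over all selected cells of the middle range it stood at 4166 and 3574 CPM. S100g-rich cells were 16 of 39 there in WT and 48 of 66 in KO, an unlike mix. Under 25% mitochondrial UMIs the S100g-rich ratios were 2.60 (1.05 to 5.97) for Aqp4, 0.66 (-0.31 to 2.09) for Avpr2 and 0.48 (0.26 to 0.72) for Fxyd4. Over S100g-rich cells with fewer than 3 Lcn2 UMIs they were 1.19 (-0.22 to 3.32), 0.62 (-0.25 to 1.67) and 0.82 (0.60 to 1.04), so the counts behind Aqp4 and Avpr2 did not show a difference there. KO endothelial cells held 35.9 CPM of Aqp4, 19.2 of Avpr2 and 476 of Fxyd4. Ptger1 in S100g-poor cells stood at 146 and 65.9 CPM. Over all selected cells 0 of 11 water genes were higher and 2 lower, with a median of -0.54.

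Genes of the distal convoluted tubule, a neighbouring segment, were lower in KO too. Of 10 measured members of that list, 1 was higher and 4 lower, with a median of -0.68. The magnesium-linked transporter gene Cnnm2 stood at 70.9 and 15.3 CPM in S100g-rich cells, and the ubiquitin ligase adaptor Klhl3, which controls WNK kinases, at 118 and 40.4 CPM. Wnk4 stood at 171 and 68.6 CPM. Among 21 segment transcription factors 3 were higher and 6 lower over all selected cells. The epithelial factors Elf3 (51.6 and 131 CPM) and Elf5 (58.5 and 161 CPM) were higher, and Foxi1, the intercalated cell factor, had no UMI in WT and 23.8 CPM in KO, at least 6.92-fold higher. KO endothelial cells held 18.4 CPM of Foxi1. Gata2 (259 and 107 CPM), Tfap2b (181 and 67.4 CPM) and Sim1 (122 and 47.2 CPM) were lower. Junction genes differed little over all cells, with 0 of 15 higher and 1 lower, and in S100g-rich cells 6 of 14 were higher, or 5 of 9 with the filter on the mean, among them Cldn3, at 53.2 and 212 CPM.

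Tubular injury genes were higher in KO in both groups of cells. Of 20 measured members over all selected cells 11 were at least 2-fold higher and 0 lower, with a median log2 ratio of 1.36, or 1.12 with a gene that had no WT UMI set to its bound. In S100g-rich cells 16 of 19 were higher, with a median of 1.99 on that basis, and with the filter on the mean 11 of 14 were. Lcn2, the secreted iron-binding injury protein, stood at 119 and 6113 CPM in S100g-poor cells, a ratio of 5.68 (5.37 to 6.02). In S100g-rich cells it had no UMI in WT and 1608 CPM in KO, beside 1512 CPM in KO endothelial cells. By thinned shares Lcn2 was found in 98.0% of KO S100g-poor, 59.8% of KO S100g-rich and 31.9% of KO endothelial cells.

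Clusterin (Clu), a secreted chaperone, stood at 2446 and 4952 CPM in S100g-rich cells, a ratio of 1.02 (0.87 to 1.16), and at 152 and 3368 CPM in S100g-poor cells, a ratio of 4.46 (4.19 to 4.76). KO endothelial cells held 1136 CPM. In WT alone, Clu was thus much higher in S100g-rich than in S100g-poor cells. The keratin Krt19 stood at 8.03 and 180.5 CPM over all selected cells, and KO endothelial cells held 181 CPM. The calcium-binding S100a6 stood at 9.18 and 1148 CPM, with 75.0% of its WT UMIs in 1 cell, and KO endothelial cells held 3256 CPM. After thinning, 79.1% of WT endothelial and 2.63% of WT selected cells held a S100a6 UMI, so endothelial cells give no free RNA level for it. All 20 injury genes were read in libraries whose whole level differed, since injured tubule markers summed to 135 CPM over kept WT cells and 8678 CPM over kept KO cells.

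**Figure D3:**
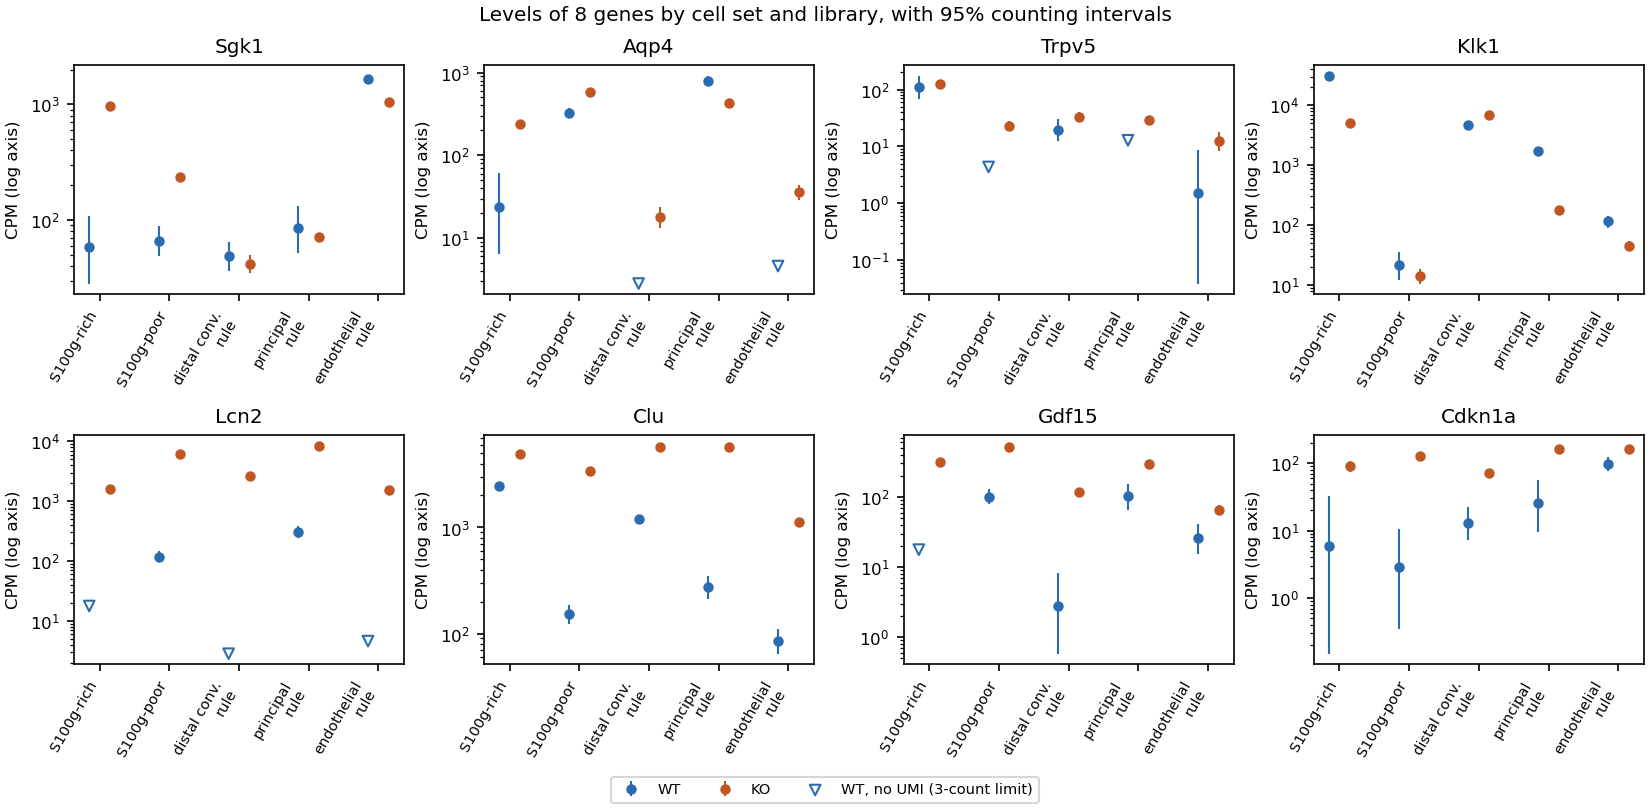
Levels of 8 genes in CPM on log axes are plotted for S100g-rich, S100g-poor, distal convoluted tubule, principal (few proximal transcripts) and endothelial cells, WT blue and KO orange, with 95% counting intervals as bars and open triangles at the 3-count limit where WT had no UMI. Sgk1 in KO is raised in S100g-rich (966 CPM) and S100g-poor cells (234 CPM) and not in the 2 neighbouring segments (42.2 and 71.9 CPM), while Lcn2 and Clu are higher in KO in all 5 sets.

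The series asks, per its title, how factors linked to muscle wasting relate to kidney disease, and 7 of 21 such secreted factors were measured in the selected cells. Of these 3 were higher, 1 lower. Il1b, 1 of the 3, had no WT UMI. In KO 18 of its 21 UMIs lay in 1 cell that held 132 immune UMIs. The list median was 0.78, or 0.14 with the gene that had no WT UMI set to its bound. Gdf15, a stress hormone that acts on appetite, stood at 80.3 and 459 CPM, a ratio of 2.50 (2.17 to 2.88). 1 WT cell held 41 of its 70 WT UMIs. S100g-rich cells had no Gdf15 UMI in WT and 312 CPM in KO, at least 17.6-fold higher, and KO endothelial cells held 65.9 CPM. Fstl1, a secreted binding protein, was lower, at 147 and 38.2 CPM, a ratio of -1.94 (-2.26 to -1.61). The matrix signal Ctgf had -0.24 (-0.76 to 0.35).

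Over all selected cells, growth arrest genes of the p53 response were higher. Of 14 measured members 8 were at least 2-fold higher and 0 lower, with a median of 1.13. In S100g-poor cells 9 of 14 were higher, with a median of 1.09, beside 4.63% of all genes. In S100g-rich cells 3 of 10 were higher, with a median of 0.62 with bounds, beside 18.7% of all genes. With the filter on the mean, 1 gene was left in S100g-rich cells, and 0 were higher. The cell cycle inhibitor Cdkn1a stood at 3.44 and 125 CPM, a ratio of 4.97 (3.63 to 7.47) from 3 WT UMIs, and Phlda3 at 1.15 and 54.1 CPM, a ratio of 4.98 (3.07 to 10.87) from 1 WT UMI. The cell death gene Bax stood at 159 and 402 CPM. All kept KO cells held 164 CPM of Cdkn1a and KO endothelial cells 164 CPM. After thinning, 19.4% of WT endothelial and 0% of WT selected cells held a Cdkn1a UMI, so endothelial cells give no free RNA level for it. Cycling markers, 6 genes, summed to 76.8 and 202 CPM, and 1 WT cell held 19 of the 21 WT UMIs of Mki67.

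Inflammatory and interferon genes were higher for some members. Of 13 measured chemokine and NF-kB genes 4 were higher and 1 lower, with a median of 0.49. Socs3, a feedback inhibitor of cytokine signalling, had no WT UMI and 111 CPM in KO, at least 32.2-fold higher, and KO endothelial cells held 134 CPM. After thinning, 8.96% of WT endothelial and 0% of WT selected cells held a Socs3 UMI, so endothelial cells give no free RNA level for it. The macrophage growth factors Csf1 (6.88 and 47.4 CPM) and Il34 (5.73 and 48.0 CPM) were higher. Of 14 interferon genes 3 were higher, with a median of 0.38, and the membrane protein Ifitm3 stood at 148 and 532 CPM. Immune markers, 8 genes, summed to 40.1 CPM in WT, with 6 of the 8 at 0, and 98.6 CPM in KO, with none at 0. At least 3 immune UMIs were held by 1 WT and 22 KO members.

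Of 21 immediate-early and heat shock genes that respond to dissociation, 6 were higher and 0 lower, with a median of 0.35. In S100g-rich cells, where the Sgk1 ratio and the injury median were also higher than in S100g-poor cells, 12 of 18 were higher and 0 lower, with a median of 1.33, or 0.74 with bounds, and in S100g-poor cells 5 of 19 were higher and 1 lower. With the filter on the mean, 3 of 5 were higher and 0 lower in S100g-rich cells, with a median of 1.09. Over the 89 WT and 136 KO selected cells with few dissociation transcripts, the injury median was 1.02, against 1.36 over all selected cells. In S100g-rich cells the part of dissociation in the Sgk1 ratio and the injury median was not tested. Fos stood at 4.59 and 28.7 CPM and Ier3 at 155 and 387 CPM. The 13 extracellular matrix genes had a median of 0.27 with bounds, and 13 antigen presentation genes one of 0.21, with 1 higher. For fibronectin (Fn1) 1 KO cell held 36 of 43 UMIs, and that cell held 132 immune UMIs.

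Of the metabolic lists, fatty acid oxidation had a median of -0.46, with 4 of 21 genes at least 2-fold lower, among them Acat1 (303 and 134 CPM), Hadhb (290 and 131 CPM), Cpt1a (114 and 51.0 CPM) and the regulator Ppargc1a (185 and 80.8 CPM). Nuclear oxidative phosphorylation, with a median of -0.29 and 1 of 24 lower, and glycolysis, with -0.29 and 1 of 14 lower, were near the median of -0.15 and the 5.83% of all genes. The 1 lower gene of oxidative phosphorylation was the succinate dehydrogenase subunit Sdha, at 338 and 160 CPM. Cilium and cystic disease genes had -0.21, with 1 of 20 higher and 1 lower, the hedgehog receptor Ptch1 being the lower, at 32.1 and 14.4 CPM.

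Kif3a stood at 21.8 (13.1 to 34.0) CPM in WT and 11.9 (9.20 to 15.1) CPM in KO, a ratio of -0.90 (-1.63 to -0.05), and at 11.8 and 12.1 CPM in S100g-rich cells. Over all kept cells the levels of Kif3a were 14.5 and 13.5 CPM. The deleted exons are not given, so tags from the 3' end of the transcript do not check the deletion.

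**Figure D4:**
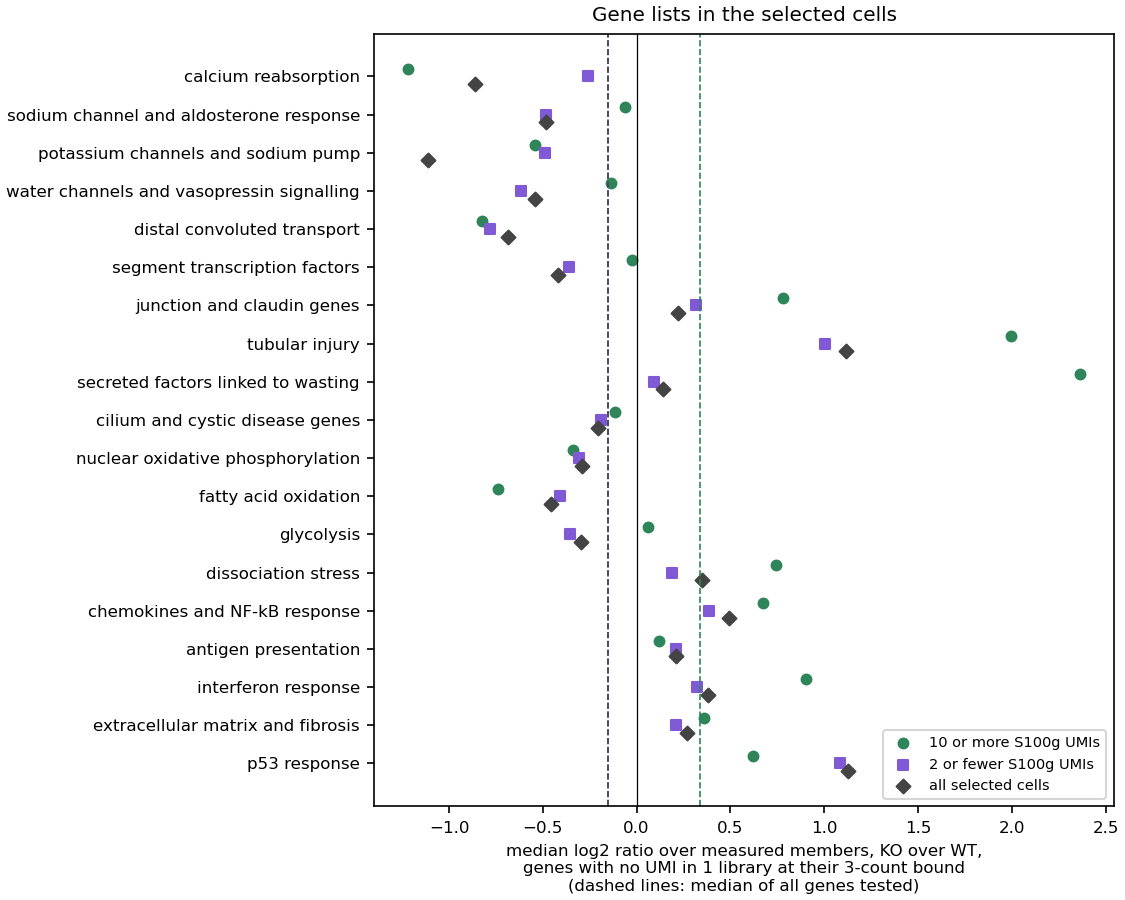
The median log2 ratio of CPM, KO over WT, is plotted for each of 19 gene lists in S100g-rich cells (circles), S100g-poor cells (squares) and all selected cells (diamonds), with dashed lines at the median of all genes tested (0.34 in S100g-rich, or 0.025 with the filter on the mean, and -0.15 in the other 2 sets). Tubular injury lies to the right in all 3 sets, at 1.99 in S100g-rich cells, and calcium reabsorption lies to the left in S100g-rich cells, at -1.22, the ratio of S100g itself.

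The 12 genes with the highest and the 12 with the lowest ratio showed what else separated the libraries in these cells. The 12 highest were Ociad2, Socs3, Sprr2f, Il18r1, Dcdc2a, Lcn2, Rprm, Phlda3, Cdkn1a, Krt19, Pdpn and Plac8. Ociad2 had no WT UMI and 171 CPM in KO, at least 49.6-fold higher, with 193 CPM in S100g-poor and 88.8 CPM in S100g-rich cells, and KO endothelial cells held 36.7 CPM. The cell cycle arrest gene Rprm stood at 2.29 and 105 CPM, against 49.9 CPM over all kept KO cells. Dcdc2a stood at 1.15 and 99.5 CPM.

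The 12 lowest were Ache, Atp2b2, Ranbp3l, Cebpa, Snn, Spock3, Cacnb4, Smim5, Rhbg, Lyst, Klk1 and Tspan18. Acetylcholinesterase (Ache) stood at 57.3 and 2.16 CPM, a ratio of -4.68 (-5.77 to -3.80), and the plasma membrane calcium pump Atp2b2 at 92.9 and 3.25 CPM, a ratio of -4.81 (-5.66 to -4.09). The ammonia transporter Rhbg stood at 295 and 104 CPM in S100g-rich and 136 and 5.95 CPM in S100g-poor cells. Ache and Ranbp3l were low in S100g-rich cells of both libraries, at 0 and 0.81 CPM and at 5.91 and 6.46 CPM. In principal cells with few proximal transcripts Ache stood at 98.2 and 0.593 CPM, Ranbp3l at 179 and 8.50 CPM and Smim5 at 179 and 19.8 CPM.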

How the data were processed

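Single-cell 3' RNA was measured in kidney cells of 1 WT and 1 KO library. The analysis started from the authors' deposited UMI counts per gene and barcode. Cell Ranger 3.1.0 is the version that made these counts per the file headers. Cell Ranger 3.0.2, Seurat 3.1.1 and build mm10 are named in the submitters' processing notes. Per the labels' protocols the kidney was dissociated with a cold active protease, red cells were lysed and dead cells removed.

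Members and gene lists were chosen with earlier results of these data known. For each set of cells, gene UMIs were added up and scaled to the set's non-mitochondrial total (CPM), so deep cells weigh more. Log2 ratios are KO over WT with 0.5 UMIs added to each sum and an exact conditional interval. Sums carry exact Poisson and shares exact Clopper-Pearson intervals at 95%, for counting error only. With no UMI in a library, the bound uses 3 counts there and takes the other library's level without its counting error. It is therefore not the end of a 95% interval. For Gdf15 in S100g-rich cells that interval began lower, at a log2 ratio of 3.83. A gene entered the counts at 20 CPM and 20 UMIs in the higher library, and a list member at 20 UMIs over both. Because each genotype is 1 library, past 2-fold is a description and no test was made.

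Named genes were the 12 highest and 12 lowest ratios of genes that reached 50 CPM and 30 UMIs in the higher library, with an interval without 0 and 0.5 times the level of all kept cells or more, members of the 4 transport lists, up to 6 members of each other list by size of ratio, the rule and marker genes, and the 12 leading genes. Mt1 and Hoxd10 were added after their values were seen. Doublets were marked with Scrublet (scanpy 1.11.5), 5 WT and 7 KO members, and kept in. Endothelial cells had at least 3 UMIs of Pecam1, Kdr, Cdh5 and Flt1, no Ptprc and fewer than 3 of C1qa and C1qb. The interval script was tested on simulated data. Alternatives covered cell limits, the rule, scaling (edgeR 4.0.16 for trimmed means), weighting, free RNA and the mix of cells. Some results are not reported here.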

Additional observations from a re-analysis of the deposited data

Results flagged for a closer look

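Cldn10, a claudin of the thick ascending limb, pointed opposite ways in the 2 groups of selected cells. Its KO over WT log2 ratio was -5.07 in S100g-rich and 3.18 in S100g-poor cells, the latter from 0 CPM in WT and 6.44 CPM in KO. In WT 8 of its 11 UMIs lay in 1 cell marked as a doublet, which also held 92 of the 178 UMIs of the proximal gene Miox. Cxcl10, an interferon-induced chemokine, had 3.76 in S100g-rich and -5.72 in S100g-poor cells, and 1 KO cell held 48 of its 49 KO UMIs. S100g-rich cells had no WT UMI of Cxcl10, and S100g-poor cells held 5.80 CPM in WT and 0 in KO. Tyrobp, an immune cell adaptor, had 3.70 in S100g-rich and -1.25 in S100g-poor cells, and 1 WT cell marked as a doublet held all 20 of its WT UMIs together with all 46 of Cd74. For all 3 genes the difference between the groups of cells was not tested.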

How the results depend on the processing

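No paired analysis was possible because each genotype is 1 library. The precision is limited by 26 S100g-rich WT cells with 169272 non-mitochondrial UMIs. The share ratio of 1.59 was 1.02 at a mitochondrial limit of 25%, 1.01 with the rule after thinning, 2.58 for S100g-rich and 1.26 for S100g-poor cells. The count of genes higher in KO was 134 without cells with 3 or more Lcn2 UMIs, 839 in S100g-rich cells, 430 with trimmed-mean and 430 with median-of-ratios scaling, and 1179 without the filter. The count lower was 160 in S100g-rich cells, 249 with mitochondrial UMIs in the total, 257 and 258 with the 2 scalings, and 3391 without the filter, which tests more genes.

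The calcium median of -0.86 was -0.22 at the 25% limit, -0.00268 after thinning, -0.44 with the neighbouring segment genes at 0, -0.30 with cells weighted equally, -0.26 in S100g-poor cells, and 0.68 without the Lcn2 cells. The potassium median of -1.11 was -0.77, -0.52, -0.54 in S100g-rich, -0.49 in S100g-poor cells, -0.94 with the mitochondrial total, -0.93 with either scaling, -0.79 with equal weights and 0.28 without the Lcn2 cells. The sodium median was -0.063 in S100g-rich cells. The injury median of 1.36 was 0.70 after thinning, 1.11 with thresholds of 6 UMIs, 0.77 without the Lcn2 cells, 1.02 in cells with few dissociation transcripts, 2.20 in S100g-rich cells and 1.12 without the filter. In principal cells with fewer than 5 proximal UMIs the medians were -1.20 (calcium), -0.65 (sodium), -1.68 (potassium), -0.87 (water) and 1.63 (injury), against -0.46, 0.32, -0.86, 0.36 and 3.05 in all principal cells.

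Other medians that turned were oxidative phosphorylation at 0.29 without the Lcn2 cells, glycolysis at 0.061 in S100g-rich cells and extracellular matrix at -0.093 with free RNA subtracted. Without the Lcn2 cells, which leaves unlike mixes, these ratios turned: Aqp4 -1.27, Elf5 -0.46, Fxyd2 0.86, Ifitm3 -0.65, Kl 0.39, Klhl3 0.23, Klk1 0.78, Pth1r 0.85, S100g 1.57, Slc8a1 0.086, Trpv6 -3.10, Usp2 0.63, Vdr 0.68 and Wnk4 0.32. Thinning turned Cldn10 to 0.30, S100g to 0.61 and Trpv6 to -0.21. The 25% limit turned S100g to 0.49, and equal weights to 0.054. In S100g-rich cells Fxyd4 was 1.47, Nr3c2 0.73 and Ptger1 0.023. In S100g-poor cells Cldn10 was 3.18, with no WT UMI, Fxyd2 0.14 and Wnk1 0.19. Cldn10 was 1.31 without doublets and 2.38 with neighbouring genes at 0. Apart from the mixes of cells, the causes were not tested. A limit of 1000 UMIs turned no value.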
